A study of Mus musculus with 12 samples.

Results

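The mRNA of 10 genes of the integrated stress response was followed in EL-4 T cells. They were Atf4 and genes linked to it (Atf3, Atf5, Ddit3, Ddit4, Trib3, Chac1, Sesn2, Asns and Ppp1r15a), chosen by name with earlier results of these data known. Each gene was read from probe sets annotated with its symbol alone, and each of the 10 had 1 such probe set, out of 23410 annotated probe sets tested and 35399 on the array. EL-4 is a mouse T lymphoma line, so all values come from 1 cell line. The cells were pretreated for 30 min with cycloheximide (CHX), an inhibitor of protein synthesis, at 10 μg/ml, or with the solvent (DMSO). Stimulation followed for 4 h with 10 ng/ml PMA and 1 μM ionomycin (P/I), which bypass the T cell receptor, or the cells were left unstimulated. The 4 groups were therefore CHX with P/I, DMSO with P/I, CHX unstimulated and DMSO unstimulated, with 3 biological replicates each and 12 arrays in all. How long the unstimulated cells remained in CHX beyond the pretreatment was not given in the sources used here.

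The integrated stress response starts with kinases that phosphorylate the translation initiation factor eIF2. General protein synthesis then falls, while translation of the Atf4 mRNA increases, and the ATF4 protein activates genes of amino acid supply and, with CHOP, of cell death and feedback. Because much of the control of ATF4 is exerted on its translation, the level of its mRNA does not report the level of its protein. In T cells the pathway is best known for sensing amino acid shortage, through the kinase GCN2.

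Values are deposited log2 robust multichip average (RMA) values, so a difference of 1 is a 2-fold change, and levels of different genes cannot be set against each other. Array medians lay between 5.55 and 5.71, and the correlation between replicate arrays was 0.983 to 0.994. A gene was called when its Benjamini-Hochberg adjusted p from limma over all tested probe sets was under 0.1. Of 11 measured T cell markers the levels ran from 7.86 to 12.6 in unstimulated DMSO cells, with group medians of 10.03 to 10.37. Of 10 myeloid markers 9 were under log2 6 in all groups, as were 5 of 7 B cell markers. With CHX during P/I 3 of the 10 myeloid markers were higher and 0 lower (0 also at an unadjusted p under 0.05), beside 13.2% and 12% of all probe sets. They were Fcgr1 (1.33, adjusted p = 0.00782), Elane (0.36, adjusted p = 0.0274) and Adgre1 (0.25, adjusted p = 0.0944). Fcgr1 read 7.49, 5.95 and 6.22 in CHX-treated P/I-stimulated cells, with replicate 1 the highest. Elane and Adgre1 stayed under log2 6 in all groups. Of the B cell markers Cd79b was higher (0.54) and Blk lower (-0.87), and with P/I in DMSO Cd79b was lower (-0.94) and Blk higher (0.80). Of the T cell markers 3 were higher and 3 lower with CHX during P/I. With P/I in DMSO 2 of them rose and 3 fell, beside 9.05% and 8.42% of all probe sets. The part of these shifts in the results below was not tested.

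Promoter sequence of the members is shown because ATF4, CHOP and the CREB/ATF proteins bind known short DNA motifs, and because members that share a motif can be compared for their response. The windows were RefSeq promoters of GRCm38.p6, 250 bases before to 50 bases after the start, 11 windows for the 10 genes since Atf5 has 2. Both strands were searched for TGATGNAA (the core of C/EBP-ATF composite elements), TGACGTCA (the full CRE), TNACGTCA (a looser CRE, which includes every TGACGTCA) and TGANTCA (the AP-1 site). The motifs were chosen with the promoters in view. TGATGNAA lay in the windows of Atf3, Trib3, Chac1 and Asns, against 3.97% of all 32851 promoters. TNACGTCA lay in those of Atf3 and Ppp1r15a (2.93% of all), TGACGTCA in that of Ppp1r15a (1.79%) and TGANTCA in that of Ddit3 (7.81%). Matches are in capitals, on the strand of the gene, and each stretch was cut around the match.
Atf3, chr1:191183334-191183483, minus strand: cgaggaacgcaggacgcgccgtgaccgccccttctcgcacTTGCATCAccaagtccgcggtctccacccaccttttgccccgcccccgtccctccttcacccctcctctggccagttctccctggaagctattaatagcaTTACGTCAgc
Trib3, chr2:152344028-152344057, minus strand: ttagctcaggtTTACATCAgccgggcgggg
Chac1, chr2:119351009-119351096, plus strand: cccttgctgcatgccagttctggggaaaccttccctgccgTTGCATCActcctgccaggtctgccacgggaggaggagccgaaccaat
Asns, chr6:7693210-7693272, minus strand: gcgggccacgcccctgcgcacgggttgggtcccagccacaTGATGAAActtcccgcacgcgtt
Ppp1r15a, chr7:45526269-45526320, minus strand: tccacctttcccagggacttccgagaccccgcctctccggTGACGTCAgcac
Ddit3, chr10:127290543-127290597, plus strand: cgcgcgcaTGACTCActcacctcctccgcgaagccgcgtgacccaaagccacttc
A match is a description of the letters and not a bound site, and a window without one says nothing of the factor. No binding was measured on these arrays.

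Stimulation raised 6 of the 10 mRNAs in DMSO cells and lowered none, while 9.05% of all tested probe sets were higher and 8.42% were lower. At an unadjusted p under 0.05, 7 were higher and 0 lower, beside 23.9% of all probe sets in either direction. The unmoderated fit also gave 6 higher and 0 lower at an adjusted p under 0.1. The median log2 difference of the members was 1.24, against -0.03 over all probe sets. Since the members were chosen with earlier results of these data known, the counts and medians here describe them and test nothing. With CHX during P/I, 2 members were higher and 3 lower than with P/I in DMSO (13.2% and 12% of all probe sets), with a median of -0.53 against 0.01. In CHX-treated cells P/I left 4 higher and 4 lower (10.2% and 11.6% of all), with a median of -0.19 against 0.02. With both agents against neither, 3 were higher (Atf4, Ddit3 and Ppp1r15a) and 3 lower (Trib3, Chac1 and Asns), beside 12% and 10.7% of all probe sets. The comparison of P/I in DMSO and that of CHX during P/I share the 3 DMSO P/I arrays, so their values are given side by side and are not independent.

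**Figure D1:**
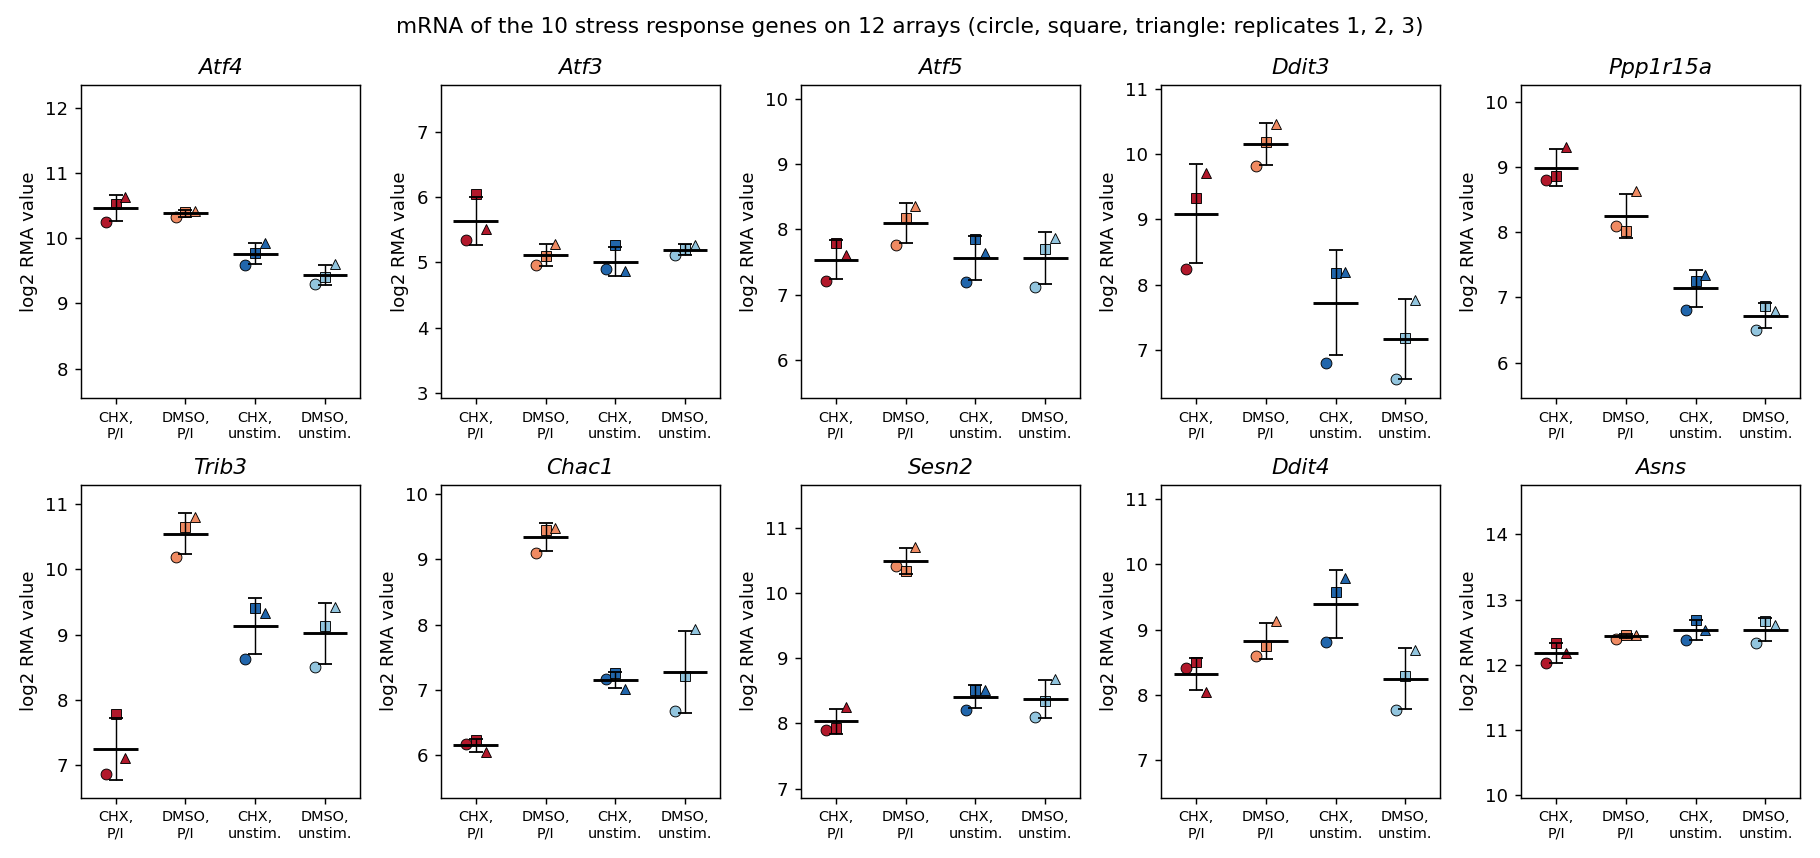
Log2 RMA value (vertical axis, the same span in every panel) of each of the 10 genes on each of the 12 arrays, with the group mean (line) and SD (bar). Trib3, Chac1 and Sesn2 are highest in the DMSO P/I group, and Trib3 and Chac1 are lowest in the CHX P/I group. Atf4 and Ppp1r15a are high in both P/I groups.

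Atf4, the transcription factor at the centre of the response, rose with P/I whether or not CHX was present. Its values were 10.25, 10.52 and 10.63 in CHX-treated P/I-stimulated cells, 10.32, 10.40 and 10.42 in P/I-stimulated DMSO cells, 9.59, 9.77 and 9.92 in unstimulated CHX cells and 9.29, 9.40 and 9.60 in unstimulated DMSO cells. All 6 stimulated arrays lay above all 6 unstimulated arrays. P/I raised Atf4 1.63-fold in CHX cells (log2 0.71, adjusted p = 0.00143) and 1.94-fold in DMSO cells (0.95, SE 0.12, adjusted p = 0.000209). The difference between the P/I-stimulated groups was 0.09, with a 95% interval of -0.18 to 0.35, so a change of either sign up to that size was not resolved. CHX in unstimulated cells gave 0.33, at an unadjusted p of 0.0167 and an adjusted p of 0.654.

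Ppp1r15a encodes GADD34, which brings a phosphatase to eIF2 and so ends the response. It reached 8.80, 8.87 and 9.31 in CHX-treated P/I-stimulated cells, 8.09, 8.03 and 8.63 in P/I-stimulated DMSO cells, 6.81, 7.25 and 7.35 in unstimulated CHX cells and 6.51, 6.86 and 6.80 in unstimulated DMSO cells. The groups did not overlap between CHX and DMSO during P/I, nor between stimulated and unstimulated cells. P/I raised it 3.62-fold in CHX (log2 1.85, adjusted p = 6.06e-05) and 2.88-fold in DMSO (1.53, SE 0.20, adjusted p = 0.000256). CHX during P/I raised it 1.67-fold over P/I in DMSO (0.74, SE 0.20, adjusted p = 0.0178). CHX in unstimulated cells gave 0.415, at an unadjusted p of 0.0576 and an adjusted p of 0.732. The P/I effect itself differed by 0.33 between CHX and DMSO cells, which was not called (adjusted p = 0.562). With both agents Ppp1r15a stood 4.82-fold above cells with neither (adjusted p = 1.02e-05). The call for CHX during P/I held without each single array in turn.

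Ddit3 encodes CHOP, a transcription factor that acts downstream of ATF4 and favours cell death under lasting stress. Its values were 8.23, 9.33 and 9.70 in CHX-treated P/I-stimulated cells, 9.81, 10.19 and 10.46 in P/I-stimulated DMSO cells, 6.79, 8.18 and 8.20 in unstimulated CHX cells and 6.56, 7.18 and 7.77 in unstimulated DMSO cells. Replicate 1 was the lowest in every group, and the stimulated groups did not overlap with their unstimulated counterparts. In CHX cells P/I raised Ddit3 2.58-fold (log2 1.37, adjusted p = 0.0574), and in DMSO cells 7.92-fold (2.99, SE 0.45, adjusted p = 0.000741), the largest increase with P/I in DMSO among the 10. The call in CHX cells was lost without CHX P/I replicate 2 (1.25, adjusted p = 0.166), CHX P/I replicate 3 (1.06, adjusted p = 0.216) or unstimulated CHX replicate 1 (0.90, adjusted p = 0.206). That call was also lost in the unmoderated fit (adjusted p = 0.145), and without all replicate 2 arrays (adjusted p = 0.272) or all replicate 3 arrays (adjusted p = 0.25). The decrease with CHX during P/I, -1.06 (SE 0.45), was not called (adjusted p = 0.13), although every CHX value lay below every DMSO value. It was called without CHX P/I replicate 3 (-1.37, adjusted p = 0.0843) and without unstimulated CHX replicate 1 (adjusted p = 0.0635). The interaction of CHX and P/I was -1.62 (SE 0.63, adjusted p = 0.152), and -2.08 without unstimulated CHX replicate 1 (adjusted p = 0.0417). The labels do not state that replicate numbers are pairs. A fit with a replicate block called that decrease (adjusted p = 0.000587) and the interaction (adjusted p = 0.000877).

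Sesn2 encodes Sestrin2, a leucine sensor that restrains the growth kinase complex mTORC1. It read 7.90, 7.93 and 8.26 in CHX-treated P/I-stimulated cells, 10.42, 10.34 and 10.71 in P/I-stimulated DMSO cells, 8.20, 8.51 and 8.51 in unstimulated CHX cells and 8.09, 8.35 and 8.69 in unstimulated DMSO cells. The DMSO P/I arrays were set apart from the other 9 arrays, which lay within a narrow band. P/I in CHX cells gave -0.38, which was not called (adjusted p = 0.151), and P/I raised Sesn2 4.33-fold in DMSO (log2 2.11, SE 0.16, adjusted p = 5.16e-06). During P/I CHX lowered it 5.5-fold (-2.46, SE 0.16, adjusted p = 1.25e-06). The P/I effect differed between CHX and DMSO by -2.49 (adjusted p = 5.17e-05).

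Chac1 encodes an enzyme that degrades glutathione. Its values were 6.17, 6.23 and 6.04 in CHX-treated P/I-stimulated cells, 9.10, 9.45 and 9.48 in P/I-stimulated DMSO cells, 7.17, 7.26 and 7.01 in unstimulated CHX cells and 6.68, 7.21 and 7.93 in unstimulated DMSO cells. The CHX P/I arrays were the lowest of the 12 and did not overlap with any other group. P/I lowered Chac1 in CHX cells (log2 -0.997, adjusted p = 0.012) and raised it 4.2-fold in DMSO (2.07, SE 0.24, adjusted p = 0.00011). During P/I CHX lowered it 9.14-fold (-3.19, SE 0.24, adjusted p = 3.28e-06). Cells with both agents were also below cells with neither (-1.12, adjusted p = 0.00542). The interaction was -3.07 (adjusted p = 0.000179).

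Trib3 encodes a pseudokinase induced by ATF4 and CHOP that acts back on both. It read 6.86, 7.78 and 7.11 in CHX-treated P/I-stimulated cells, 10.20, 10.65 and 10.80 in P/I-stimulated DMSO cells, 8.63, 9.42 and 9.34 in unstimulated CHX cells and 8.51, 9.13 and 9.43 in unstimulated DMSO cells. The 3 levels were ordered without overlap, with DMSO P/I above both unstimulated groups and CHX P/I below them. P/I lowered Trib3 in CHX (log2 -1.88, adjusted p = 0.00093) and raised it 2.88-fold in DMSO (1.53, SE 0.30, adjusted p = 0.0041). During P/I CHX lowered it 9.82-fold (-3.30, SE 0.30, adjusted p = 1.25e-05), the largest decrease among the 10. Trib3 with both agents was -1.77 from cells with neither (adjusted p = 0.00119), and its interaction was -3.40 (adjusted p = 0.000394). The longer stay in CHX of the stimulated cells, if the unstimulated cells were harvested right after pretreatment, and the effect of P/I in CHX cannot be told apart for Trib3, Chac1 and the other genes. The same limit holds for the interaction of each gene, which contains the comparison of P/I in CHX.

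**Figure D2:**
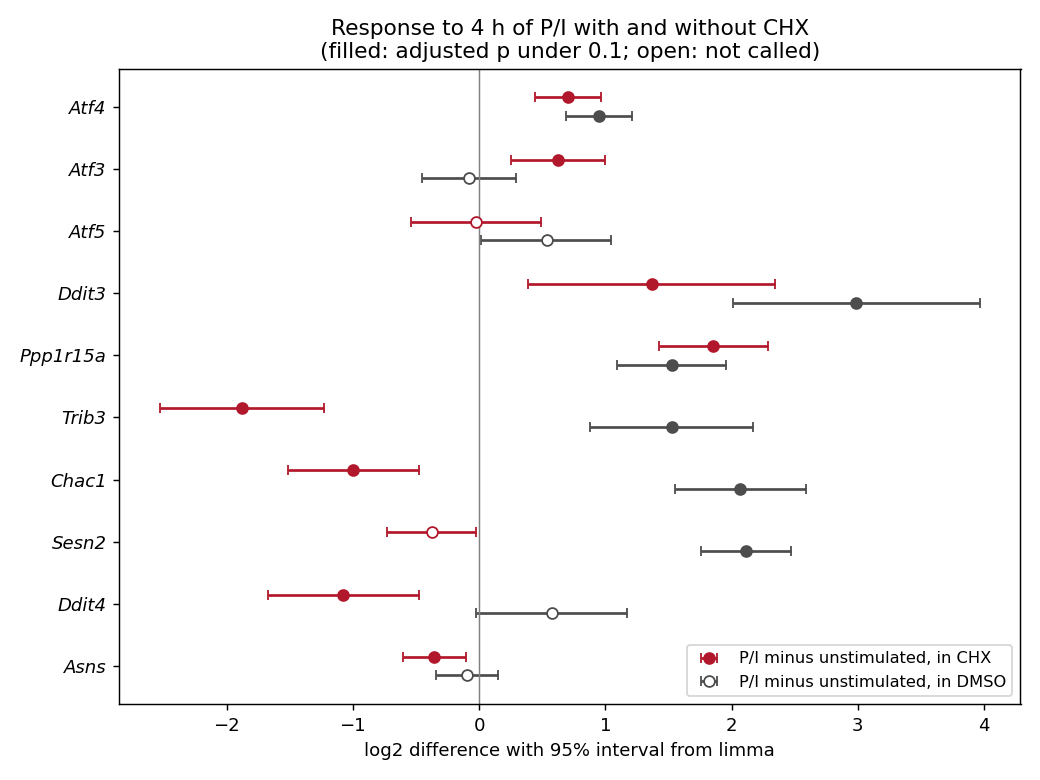
Log2 difference of P/I-stimulated minus unstimulated cells with the 95% interval from limma (horizontal axis) for each of the 10 genes, in CHX (red) and in DMSO (grey). Filled points were called at an adjusted p under 0.1. For Trib3 and Chac1 the red point lies below 0 and the grey point above it, and for Atf4 and Ppp1r15a both lie above 0.

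Ddit4 encodes REDD1, another inhibitor of mTORC1. Its values were 8.41, 8.51 and 8.04 in CHX-treated P/I-stimulated cells, 8.60, 8.75 and 9.13 in P/I-stimulated DMSO cells, 8.81, 9.58 and 9.79 in unstimulated CHX cells and 7.77, 8.29 and 8.70 in unstimulated DMSO cells. The unstimulated CHX arrays lay above those of both CHX P/I and unstimulated DMSO cells, an order seen in no other member. P/I lowered Ddit4 in CHX cells (log2 -1.08, adjusted p = 0.0169), while in DMSO cells it gave 0.57 (SE 0.27, adjusted p = 0.232). The P/I effect differed by -1.65 (SE 0.39, adjusted p = 0.0187). CHX in unstimulated cells gave 1.14 (SE 0.27, 2.21-fold), at an unadjusted p of 0.00135 and an adjusted p of 0.371. Without unstimulated CHX replicate 1 that value was 1.43 and was called (adjusted p = 0.0696). Levels with CHX alone and with P/I alone were not separated, since P/I alone minus CHX alone was -0.57 (adjusted p = 0.225).

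Atf3 encodes a stress-induced repressor of the CREB/ATF family. It read 5.34, 6.05 and 5.51 in CHX-treated P/I-stimulated cells, 4.96, 5.10 and 5.29 in P/I-stimulated DMSO cells, 4.90, 5.27 and 4.86 in unstimulated CHX cells and 5.11, 5.20 and 5.27 in unstimulated DMSO cells. The CHX P/I arrays lay above all 9 others, with replicate 2 the highest. The group means of 5.11 with P/I in DMSO, 5.01 with CHX alone and 5.20 with neither were below the array medians (5.55 to 5.71) and under log2 6, where most of the markers of other cell types lay. The mean of 5.63 with both agents was also under log2 6 and within the range of the array medians. Whether the probe set was above background there was not tested, so no fold is given. The log2 difference with P/I was 0.62 in CHX (adjusted p = 0.0245) and -0.08 in DMSO (SE 0.17, adjusted p = 0.848). During P/I the value with CHX was higher by 0.52 (SE 0.17, adjusted p = 0.0499). The increase with CHX during P/I was 0.31 without CHX P/I replicate 2 (adjusted p = 0.187), 0.44 without DMSO P/I replicate 1 (adjusted p = 0.137) and 0.51 without DMSO P/I replicate 2 (adjusted p = 0.112). Its interaction, 0.705 (adjusted p = 0.0969), was called in 3 of 12 fits that each left out a single array, with adjusted p between 0.0381 and 0.201.

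Asns, the asparagine synthetase and a long-known ATF4 target, differed little between the groups. Its values were 12.04, 12.34 and 12.18 in CHX-treated P/I-stimulated cells, 12.40, 12.46 and 12.46 in P/I-stimulated DMSO cells, 12.38, 12.69 and 12.54 in unstimulated CHX cells and 12.34, 12.67 and 12.62 in unstimulated DMSO cells. The CHX P/I arrays lay below all 9 others by a small margin, and the other groups overlapped. In CHX cells P/I gave -0.35 (adjusted p = 0.0515). In DMSO cells it gave -0.10, with a 95% interval of -0.34 to 0.15, so an increase of the size seen for Atf4 lay outside the interval. Asns stood at the 99.1 percentile of tested probe sets in unstimulated DMSO cells. Whether the array still resolved an increase at that level was not tested. The call in CHX cells was lost without CHX P/I replicate 1 (adjusted p = 0.168) or 3 (0.129), and without unstimulated CHX replicate 2 (0.19) or 3 (0.122). CHX during P/I gave -0.26 (adjusted p = 0.151), and without CHX P/I replicate 2 it was called (-0.33, adjusted p = 0.0979).

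Atf5, a factor related to ATF4 and also controlled by translation, read 7.21, 7.79 and 7.61 in CHX-treated P/I-stimulated cells, 7.76, 8.18 and 8.35 in P/I-stimulated DMSO cells, 7.20, 7.85 and 7.63 in unstimulated CHX cells and 7.11, 7.70 and 7.87 in unstimulated DMSO cells. All 4 groups overlapped with at least 1 other, and replicate 1 was the lowest in each. P/I in DMSO gave 0.53 (SE 0.24, adjusted p = 0.191) and CHX during P/I gave -0.56 (adjusted p = 0.13). Without DMSO P/I replicate 1 these were 0.70 (adjusted p = 0.0896) and -0.73 (adjusted p = 0.0597), and the decrease with CHX during P/I was also called without unstimulated DMSO replicate 1 (adjusted p = 0.0778). With the replicate block the increase with P/I in DMSO and this decrease were both called (adjusted p = 0.00175 and 0.000896).

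By the rules for primary response (higher with P/I, and a mean with CHX at or above that without) and secondary response (raised by P/I and reduced when CHX was present), Atf4 and Ppp1r15a were primary and Trib3, Chac1 and Sesn2 were secondary. Ddit3 fell between the rules, and Atf3, Atf5, Ddit4 and Asns were not called higher with P/I in DMSO. With the replicate block 5 members were secondary, with Ddit3 and Atf5 added, and the other calls of that fit are given below. Over all tested probe sets 2.27% were primary, 4.79% secondary and 1.99% between. The groups did not overlap for 6 members for P/I in DMSO (24.9% of all probe sets) and for 8 for CHX during P/I (30.1%). For P/I in CHX they did not overlap for 8 (35.8%) and for CHX in unstimulated cells for 1, Ddit4 (16.2%). In unstimulated cells CHX changed 0 of the 10 members at an adjusted p under 0.1 from limma, beside 0.0299% of all probe sets, and 0 in the unmoderated fit. At an unadjusted p under 0.05 it changed 2 (Atf4 and Ddit4), beside 6.87% of all probe sets. The interaction was called for 1 member upward (Atf3) and 4 downward (6.04% and 7.62% of all probe sets). Among the motifs, the 4 genes with TGATGNAA held 2 that were secondary (Trib3 and Chac1) and 2 that were not called higher with P/I (Atf3 and Asns), and Sesn2 had no match in its window.

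Genes that ATF4 is known to act on outside the 10 were read from lists, some of whose genes appear in more than 1 list. The lists too were chosen with earlier results of these data known. Of all probe sets 9.05% were higher and 8.42% lower with P/I in DMSO, and 13.2% and 12% with CHX during P/I. With both agents against neither these shares were 12% and 10.7%. Of 10 amino acid transporters, 7 rose with P/I in DMSO and 0 fell (0 also at an unadjusted p under 0.05), with a median of 0.53, and 8 were lower with CHX during P/I, with a median of -1.07. With both agents against neither 1 of them was higher and 5 were lower (median -0.47). Slc7a11, the cystine carrier, gave 1.62 with P/I (adjusted p = 0.000942) and -1.94 with CHX during P/I (adjusted p = 0.000176). Slc1a4, a carrier of alanine and serine, gave 0.96 and -1.74. Slc7a5, the large neutral amino acid carrier, gave 0.50 and -1.01. Its partner Slc3a2 gave 0.48 with P/I (adjusted p = 0.0145) and 0.13 with CHX during P/I, which was not called (adjusted p = 0.557).

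Of 13 enzymes of amino acid and one-carbon synthesis 5 rose and 0 fell with P/I (median 0.17), and 9 were lower with CHX during P/I (median -0.43). Both agents against neither left 1 of these 13 higher and 5 lower (median -0.295). Bcat1, which acts on branched-chain amino acids, gave 1.10 and -1.40, and the mitochondrial folate enzyme Mthfd2 gave 0.50 and -1.11. Psat1 of serine synthesis gave 0.25 (adjusted p = 0.0445) and -0.65 (adjusted p = 7.49e-05). Of 12 genes of tRNA charging and export 5 rose and 1 fell with P/I (median 0.30), and 9 were lower with CHX during P/I (median -0.55), among them Tars (0.78 with P/I and -1.09 with CHX during P/I), Wars (0.68 and -0.96) and the tRNA exporter Xpot (0.37, adjusted p = 0.174, and -1.28, adjusted p = 0.000131). Both agents against neither left 0 of these 12 higher and 7 lower (median -0.276).

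The 23 other targets of ATF4 or CHOP did not move one way. With P/I 9 rose and 1 fell (median 0.31), and with CHX during P/I 6 were higher and 8 lower (median 0.04). Both agents against neither left 5 higher and 3 lower (median 0.05). Herpud1, of protein degradation at the endoplasmic reticulum, gave 2.18 and -2.88, and the growth factor Vegfa gave 1.55 and -1.98. Gadd45a, a growth arrest gene, gave 1.53 and -0.86, and the translation inhibitor Eif4ebp1 gave 0.45 and -0.93. The 6 genes higher with CHX during P/I, named after their values were seen, were Lpin1, Ndrg1, Sqstm1, Bbc3, Map1lc3b and Bcl2l11. Lpin1, a phosphatidate phosphatase, gave -1.83 with P/I (adjusted p = 0.00137) and 1.93 with CHX during P/I (adjusted p = 0.000645), and Ndrg1 gave -0.61 (adjusted p = 0.209) and 1.08 (adjusted p = 0.0154). Sqstm1, an autophagy receptor, gave 0.56 (adjusted p = 0.0972) and 0.64 (adjusted p = 0.0411), and the cell death gene Bcl2l11 gave 0.89 (adjusted p = 0.000801) and 0.46 (adjusted p = 0.0284). In unstimulated cells no gene of any of these lists was called with CHX by limma. There 1 gene of the tRNA list and 1 of the 23 had an unadjusted p under 0.05, beside 6.87% of all probe sets.

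Dimer partners and relatives were read next, a list of 16 other C/EBP, CREB and ATF genes. With P/I 7 rose and 0 fell (1 fell at an unadjusted p under 0.05), and with CHX during P/I 2 were higher and 6 lower. Cebpg, whose protein pairs with ATF4, gave 0.94 with P/I (adjusted p = 0.000449) and -1.69 with CHX during P/I (adjusted p = 4.35e-06). Cebpb gave 0.83 and -0.72, and Creb3l2 gave 2.14 and -1.82. Crem, a CREB relative whose short forms repress, rose in both comparisons, by 0.54 (adjusted p = 0.0267) and 1.71 (adjusted p = 8.85e-06).

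A list of 17 genes held eIF2 subunits, its exchange factor eIF2B, and kinases, phosphatases and other regulators of eIF2. Eif2s1, the eIF2 subunit that is phosphorylated, was listed but had no probe set annotated with its symbol alone. Of the 17, 4 rose and 1 fell with P/I, and 1 was higher and 5 lower with CHX during P/I. The 1 that fell and the 1 that was higher were both Eif2b2, an eIF2B subunit (-0.26 and 0.46). Eif2ak3, the kinase PERK that senses unfolded protein, gave 0.22 with P/I (adjusted p = 0.58) and -1.34 with CHX during P/I (adjusted p = 0.000366). Eif2ak4, the amino acid sensor GCN2, gave 0.54 (adjusted p = 0.00221) and -1.09 (adjusted p = 9.2e-06). Dnajc3, an inhibitor of PERK, gave 0.70 and -0.83. The other arms of the unfolded protein response, IRE1 and ATF6, were represented by 22 genes. Of these 19 rose and 0 fell with P/I (median 0.96). With CHX during P/I 1 was higher and 20 were lower (median -1.13), such as the chaperone Hspa5 (1.40 with P/I and -0.76 with CHX during P/I). The 1 higher was Ern1, which encodes IRE1 (0.70, adjusted p = 0.0763, and 0.68, adjusted p = 0.0663). Atf6 itself was called in neither comparison (-0.07 and 0.13). Both agents against neither left 2 of the 22 higher and 4 lower (median -0.13). The lists of ATF4-linked genes had medians nearer to 0 with P/I in DMSO and with CHX during P/I, and the difference between lists was not tested.

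**Figure D3:**
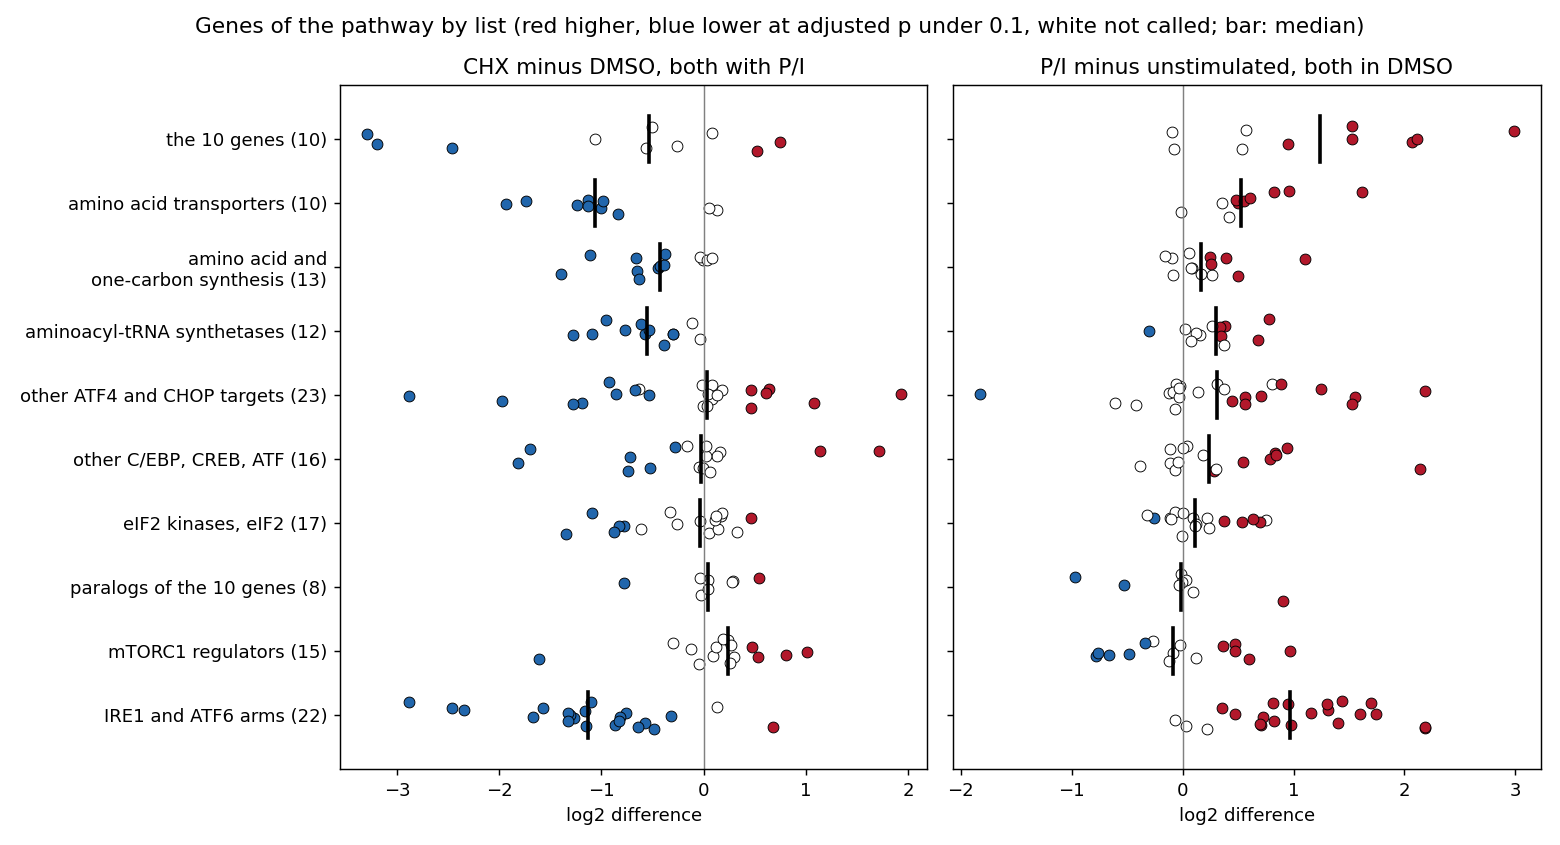
Log2 difference of each gene (points) and list median (bars) for CHX minus DMSO during P/I (left) and for P/I minus unstimulated in DMSO (right), by list, with the number of genes in brackets. The transporters lie mostly left of 0 in the left panel (median -1.07) and right of 0 in the right panel (median 0.53), while the other ATF4 and CHOP targets lie on both sides.

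Among the paralogs of the members, Sesn1 and Sesn3 fell with P/I (log2 -0.97, adjusted p = 0.00214, and -0.53, adjusted p = 0.0329), whereas Sesn2 had the increase of 2.11 given above. Trib1 rose with P/I (0.91, adjusted p = 0.00182) and was higher with CHX during P/I (0.54, adjusted p = 0.0269), and Trib2 gave 0.09 (adjusted p = 0.881) and was lower with CHX during P/I (-0.78, adjusted p = 0.0411). Of the 8 paralogs 1 rose and 2 fell with P/I, and 1 was higher and 1 lower with CHX during P/I.

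Over the 12 arrays, which share their group structure, the genes most like Atf4 by Pearson r among 17329 candidates were Dusp2 (0.984), Ensa (0.975), Tbce (0.975) and Nt5e (0.975). Those most like Ddit3 were Ets2 (0.978), Ttc39b (0.972), Atp6v0a1 (0.968) and Mpzl3 (0.966), and those most like Atf3 were Slc25a53 (0.96), Meig1 (0.942), Pip5kl1 (0.935) and Tmem235 (0.93). Among the 10 genes themselves Chac1 and Sesn2 were most alike (0.956), followed by Atf4 and Ppp1r15a (0.951) and by Trib3 and Chac1 (0.928). Atf4 and Trib3 had r = -0.07 over the same 12 arrays.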

How the data were processed

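From Affymetrix Mouse Gene 1.0ST arrays the authors deposited log2 RMA values, made with a background correction that took probe sequence into account and quantile normalization, in Partek per the submitters' processing notes (its version is not given in the sources used here). Of 35399 probe sets, 21789 had 1 symbol, 1621 several and 11989 none in the platform annotation. All 23410 annotated probe sets were fitted in limma 3.58.1 (R 4.3.3) with a mean for each of 4 groups of 3 arrays (8 residual and 3.63 prior degrees of freedom), and p-values were adjusted by Benjamini-Hochberg over all of them at the threshold of 0.1 that the methods state. No 2 arrays were identical, and the number of arrays limits the precision. The genes named were the 10 members, up to 4 genes with the smallest p per list in each of 3 comparisons, and the 4 genes closest to each of Atf4, Ddit3 and Atf3. A gene with several probe sets was read from the one with the highest mean. The 6 genes higher with CHX among the other ATF4 and CHOP targets were named outside this rule, as were Ern1, Atf6 and Eif2b2. The members and lists were chosen with earlier results of these data known. The script was tested on simulated data. Alternatives changed the scaling, variance model, filter, threshold, probe sets, pairing and arrays used. Promoters came from a RefSeq table of GRCm38.p6. All 10 members matched RefSeq by Entrez ID.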

Additional observations from a re-analysis of the deposited data

Results flagged for a closer look

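The interaction term of CHX and P/I in limma was called for 5 of the 10 genes. Of these 1 was upward and 4 downward, beside 6.04% and 7.62% of all probe sets. If the unstimulated CHX cells were harvested right after pretreatment, this term also holds a longer stay in CHX. That and a changed response to P/I cannot be told apart. The difference, P/I effect in CHX minus P/I effect in DMSO on the log2 scale, was -3.40 for Trib3 (adjusted p = 0.000394), -3.07 for Chac1 (adjusted p = 0.000179), -2.49 for Sesn2 (adjusted p = 5.17e-05) and -1.65 for Ddit4 (adjusted p = 0.0187). For Atf3 it was 0.705 (adjusted p = 0.0969), a call kept in only 3 of 12 fits that each left out a single array. The group means of Atf3 were all under log2 6. Ddit4 was called for P/I in CHX and not for P/I in DMSO, and Sesn2 the other way round. Single arrays were not tested for standing apart, since each group had 3.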

How the results depend on the processing

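Of 1150 values of single genes over 23 alternatives, 1055 kept their direction and their side of the threshold, 41 lost and 30 gained a call and 24 changed sign. The members called primary were 2 under every alternative, and 0 were lower with P/I in DMSO under every one. The replicate numbers were not taken as pairs: 15 of 18 same-numbered pairs of arrays correlated above 0.1 in their deviations from the group means (0.009 to 0.605, against -0.416 to 0.187 for different numbers), and all 12 arrays were closest to one of their own number, a hint from the data and not from the design. With the replicate block 6 members were lower with CHX during P/I, adding Ddit3 (adjusted p = 0.000587), Atf5 (0.000896) and Asns (0.0261), 1 was higher with CHX in unstimulated cells (Ddit4, 0.075), and 5 were secondary, adding Ddit3 and Atf5. It also called Atf5 (0.00175) and Ddit4 (0.0797) for P/I in DMSO, Sesn2 for P/I in CHX (0.0124), and Ddit3 (0.000877) and Atf5 (0.0144) for the interaction. Members lower with CHX during P/I were 5 with a variance trend and 5 with a mean of at least log2 5, and members between the rules were then 0 in both. The unmoderated contrast gave 1 higher with CHX during P/I and 0 for a positive interaction, which was also 0 with all probe sets and at an adjusted p under 0.05. Ddit3 for P/I in CHX was also not called in the unmoderated contrast (adjusted p = 0.145). The cause of these changes was not tested. Median centring gave 0.066 for Atf5 and 0.066 for Asns with CHX in unstimulated cells, and quantile normalization gave -0.045 for Sesn2 in the same comparison and 0.071 for Atf5 with P/I in CHX, none of them called. Without single arrays or all arrays of 1 replicate number, members called ran from 6 to 7 (higher with P/I in DMSO), 0 to 2 and 3 to 6 (higher and lower with CHX during P/I), 0 to 2 (higher with CHX, unstimulated), 2 to 4 and 1 to 5 (higher and lower with P/I in CHX), 0 to 1 and 3 to 6 (positive and negative interaction), 3 to 5 (secondary) and 0 to 1 (between). In the same fits CHX in unstimulated cells gave -0.226 to 0.18 for Atf5, -0.102 to 0.077 for Asns, -0.151 to 0.355 for Trib3, -0.111 to 0.186 for Sesn2 and -0.431 to 0.269 for Chac1, and P/I in CHX gave -0.206 to 0.139 for Atf5. Without all replicate 2 arrays Ppp1r15a was not called for CHX during P/I (0.69, adjusted p = 0.185), nor Ddit4 for the interaction (-1.71, adjusted p = 0.209) or for P/I in CHX (-1.08, adjusted p = 0.188), nor Chac1 for P/I in CHX (-0.98, adjusted p = 0.176). Without all replicate 3 arrays Ddit4 was not called for the interaction (-1.38, adjusted p = 0.163) or for P/I in CHX (-0.74, adjusted p = 0.199). Atf3 was then not called for P/I in CHX (0.61, adjusted p = 0.233). Over all probe sets CHX during P/I gave 3096 higher and 2818 lower, 3751 and 2194 after median centring and 4201 and 2669 after quantile normalization.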

Other observations

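Regulators of mTORC1, the kinase complex that Sestrin2 and REDD1 restrain, were read from a list of 15 genes. With P/I in DMSO 5 rose and 5 fell (median -0.09), beside 9.05% and 8.42% of all probe sets (median -0.03). With CHX during P/I 4 were higher and 1 lower (median 0.24), beside 13.2% and 12% of all probe sets (median 0.01). Mtor, the kinase itself, was lower with P/I (-0.48, adjusted p = 0.0384) and higher with CHX during P/I (1.01, adjusted p = 0.000281). Castor1, an arginine sensor, had the same order (-0.76 and 0.53), while Rragd, a GTPase that recruits the complex to the lysosome, had the opposite one (0.97 and -1.61).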
